A study of Mus musculus with 96 samples.

Results

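De novo fatty acid synthesis was followed here through 9 genes, Slc25a1, Acly, Acss2, Acaca, Acacb, Fasn, Me1, Thrsp and Mlxipl, out of 25094 gene symbols in the deposited expression tables. The genes were chosen by name for their place in the pathway, and each was read at the transcript with the highest mean level. All 9 were found in each of the 4 tables, and 9 of 9 passed the filter on low values in every table (more than 5 RPKTM in at least 3 libraries). RPKTM, the unit of the tables, is 10 times the familiar RPKM, and since it is scaled to transcript length, levels can be compared between genes.

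The libraries came from male C57BL/6J mice that received, at 8 weeks of age, an adeno-associated virus driven by the hepatocyte-specific TBG promoter, followed by 4 weeks on a high-fat, high-sucrose (HFHS) diet that makes the liver fatty. Control mice were floxed mice given a virus encoding GFP, and the other groups received Cre recombinase: RevDKO mice for both REV-ERB genes (Nr1d1 and Nr1d2), RevScapTKO mice for both REV-ERB genes and Scap, and ScapKO mice for Scap alone. Every group therefore carried virus and ate the HFHS diet, and the deletions were directed at hepatocytes only. Hepatocytes and liver macrophages (LMs) were taken at ZT4, ZT10, ZT16 and ZT22, with lights off at ZT12, and 3 libraries were made per genotype, cell type and time, 96 libraries in all. ScapKO libraries were normalized in tables of their own and were examined only among themselves.

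Liver makes fatty acids from sugar by turning mitochondrial citrate into cytosolic acetyl-CoA, carboxylating it to malonyl-CoA, and joining malonyl units into palmitate at the expense of NADPH. Slc25a1 exports citrate from mitochondria, Acly cleaves it to acetyl-CoA, and Acss2 makes acetyl-CoA from acetate. Acaca and Acacb encode the acetyl-CoA carboxylases ACC1 and ACC2, Fasn encodes fatty acid synthase, and Me1, malic enzyme, supplies NADPH. Thrsp encodes the lipogenic protein Spot 14. Mlxipl encodes ChREBP, the glucose-responsive transcription factor that acts on these genes together with SREBP-1c. SCAP is the escort protein that carries SREBPs to the Golgi for activation, and the REV-ERBs are repressors of the circadian clock, whose loss on an obesogenic diet was the subject of the study.

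The labels were checked against the data before any comparison. The 12 hepatocyte markers summed to 503956 to 1396470 RPKTM in the hepatocyte libraries of Control, RevDKO and RevScapTKO mice and to 41054 to 2418010 RPKTM in their LM libraries. There the sums of 3 libraries (Control ZT16 replicate 1, Control ZT22 replicate 1 and RevScapTKO ZT22 replicate 3) were far above the rest. The mean log2 level of the 12 markers varied less, with an SD of 0.41 in Control and 0.63 in RevScapTKO LM libraries. A high sum therefore need not mean more of every marker. The 12 macrophage markers summed to 262 to 6690 RPKTM in hepatocytes and to 3593 to 42103 RPKTM in LMs, and no marker of either list was at 0 over a whole genotype. In hepatocytes the median level of Scap was 494 RPKTM in Control mice, 525 in RevDKO mice and 210 in RevScapTKO mice, a log2 difference of -1.40 ± 0.14 (SE) between the last pair (limma adjusted p = 9.77e-09). Nr1d1 went against its label, with a median of 45.9 RPKTM in Control libraries, 91.3 in RevDKO libraries and 131 in RevScapTKO libraries, and was 1.55 higher on the log2 scale in RevDKO than in Control (limma adjusted p = 8.87e-05). Nr1d2 differed by 0.62 (limma adjusted p = 0.0626). The tables count whole transcripts, and reads outside a deleted part check nothing, so RevDKO and RevScapTKO below stand for the libraries labelled so. The ScapKO hepatocyte libraries are named hepatocytes in their titles but macrophages in another label, and their hepatocyte markers (451473 to 1351170 RPKTM) and macrophage markers (541 to 3713 RPKTM) were those of the title.

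The 3 genes on which the results below turn are shown by the 250 bases upstream of their annotated start, on mm9, the build of the tables. Fasn and Acly were the members whose daily pattern changed between genotypes, and Mlxipl was the member that was not called between RevScapTKO and RevDKO in either cell type.
Fasn (chr11:120685862-120686111, minus strand): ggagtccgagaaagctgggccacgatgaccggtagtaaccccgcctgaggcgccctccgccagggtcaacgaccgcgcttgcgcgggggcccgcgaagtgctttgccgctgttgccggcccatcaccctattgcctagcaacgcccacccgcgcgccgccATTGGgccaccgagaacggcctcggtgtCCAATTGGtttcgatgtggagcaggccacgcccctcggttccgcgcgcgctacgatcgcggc
Acly (chr11:100389315-100389564, minus strand): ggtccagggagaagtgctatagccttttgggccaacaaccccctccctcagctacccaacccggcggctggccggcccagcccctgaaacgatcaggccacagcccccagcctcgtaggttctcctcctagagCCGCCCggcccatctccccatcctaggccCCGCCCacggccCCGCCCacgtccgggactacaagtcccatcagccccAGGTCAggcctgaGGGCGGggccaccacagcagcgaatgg
Mlxipl (chr5:135582511-135582760, plus strand): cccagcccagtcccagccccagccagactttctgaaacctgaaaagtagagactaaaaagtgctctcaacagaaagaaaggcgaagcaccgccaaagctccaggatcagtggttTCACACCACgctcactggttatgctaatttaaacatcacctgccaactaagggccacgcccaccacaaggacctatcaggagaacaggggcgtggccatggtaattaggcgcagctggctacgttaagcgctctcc
Each is written 5' to 3' on the strand of the gene, in lower case, with capitals for any match on either strand to one of 5 motifs: TCACNCCAC (a sterol response element), CACGTG (an E-box), CCAAT (the site of NF-Y), GGGCGG (a GC box) and AGGTCA (the core of the REV-ERB site). The Fasn window held CCAAT on both strands, a motif present in 36% of 13310 such windows and in 5 of the 9 members (Acacb, Acss2, Fasn, Slc25a1 and Thrsp). The Acly window held GC boxes, found in 55.9% of windows and in 4 members (Acly, Acss2, Me1 and Slc25a1), and an AGGTCA 40 to 35 bases before the start, found in 11.3% of windows and in no other member. The sterol element was matched in 0.962% of windows and, among the 9, only in Mlxipl, 136 to 128 bases before its start. The E-box stood in 8.11% of windows and only in Slc25a1 among the 9. These are matches of letters in one window, and a start other than the annotated one would have another window.

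In hepatocytes, the pathway was expressed in every library, and its levels spanned a wide range. Fasn was the most abundant member in Control hepatocytes, with a mean of 8367 RPKTM over 12 libraries, followed by Acly (1836), Thrsp (1244), Mlxipl (957), Acss2 (888), Acaca (602), Acacb (387), Slc25a1 (336) and Me1 (182). The libraries of all 8 neighbouring pairs in this order overlapped.

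The first question was whether loss of the REV-ERBs changed the level of the pathway averaged over the day. By limma 0 of the 9 genes were called, against 4.43% of the 13325 genes tested, and 2242 genes had an unadjusted p under 0.05. The median log2 difference, RevDKO minus Control, was 0.24 over the 9 members and -0.0052 over all genes. The estimates were -0.19 ± 0.087 (SE, limma adjusted p = 0.268) for the citrate carrier Slc25a1, 0.37 ± 0.16 (0.227) for Acly and 0.23 ± 0.16 (0.522) for Acss2. They were 0.38 ± 0.21 (limma adjusted p = 0.378) for Acaca, 0.25 ± 0.25 (0.669) for Acacb and -0.11 ± 0.25 (0.880) for Fasn. For Me1, Thrsp and Mlxipl they were 0.24 ± 0.25, 0.56 ± 0.34 and -0.06 ± 0.17 (limma adjusted p = 0.687, 0.423 and 0.907). For Fasn, the 12 Control libraries lay at 1926 to 21193 RPKTM and the 12 RevDKO libraries at 2274 to 16763 RPKTM. The libraries of both genotypes covered nearly the same range.

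With Scap deleted on top of the REV-ERBs, 8 of the 9 genes were lower, whereas Mlxipl did not pass the test. Among all genes, 12.7% were called lower and 26.3% were called in either direction in this comparison, so the share of members called lower was far above the background. The median log2 difference, RevScapTKO minus RevDKO, was -2.19 over the 9 members and -0.0258 over all genes tested.

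All 3 genes that supply acetyl-CoA fell, and their groups did not overlap. How many of all genes separate without overlap was not counted, for this or any later comparison. Acly had a lowest, median and highest level of 1166, 2390 and 4140 RPKTM in RevDKO and of 334, 436 and 949 in RevScapTKO. All 12 RevScapTKO libraries lay below the lowest RevDKO library, and the means differed 4.86-fold (log2 difference -2.19 ± 0.16, limma adjusted p = 6.03e-12). Acss2 went from 763, 912 and 1650 RPKTM to 127, 170 and 251, a 5.84-fold difference (-2.53 ± 0.16, limma adjusted p = 1.33e-13). Slc25a1, the member with the narrowest spread, had 239, 294 and 332 RPKTM in RevDKO and 87.3, 118 and 155 in RevScapTKO. It fell the least of the 8, 2.57-fold (-1.37 ± 0.087, limma adjusted p = 1.17e-13).

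The carboxylases fell unequally. Acaca, whose product ACC1 makes the malonyl-CoA used for synthesis, went from 362, 701 and 1445 RPKTM to 85.0, 161 and 482 (lowest, median, highest), 3.94-fold (limma adjusted p = 2.36e-08), with 11 of 12 RevScapTKO libraries below all RevDKO libraries. Acacb, whose product ACC2 sits at the mitochondrion and makes the malonyl-CoA that restrains fatty acid oxidation, went from 124, 407 and 820 RPKTM to 10.8, 25.3 and 52.0. That was a 17.5-fold difference of means with no overlap (-3.98 ± 0.25, limma adjusted p = 5.86e-14).

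Fasn showed the largest fall of the 9. Its 12 RevDKO libraries ran from 2274 to 16763 RPKTM with a median of 5366, and its 12 RevScapTKO libraries from 117 to 664 with a median of 192. No library of one genotype reached the other, and the means differed 29.0-fold (log2 difference -4.67 ± 0.25, limma adjusted p = 1.01e-15).

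Me1 and Thrsp fell as well, with some overlap. Me1 had 82.4, 196 and 432 RPKTM in RevDKO and 18, 58.7 and 96.8 in RevScapTKO, with 10 of 12 RevScapTKO libraries below all RevDKO libraries (3.71-fold, -1.77 ± 0.25, limma adjusted p = 3.23e-06). Thrsp had 514, 1399 and 3141 RPKTM in RevDKO and 12.8, 123 and 575 in RevScapTKO, with 11 of 12 libraries below (9.36-fold, -3.87 ± 0.34, limma adjusted p = 2.45e-10). Thrsp in RevScapTKO spanned the widest relative range of any member, and its values by time are given below.

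Mlxipl stood apart from the enzymes. It lay at 476 to 1383 RPKTM in RevDKO (median 847) and at 475 to 1143 in RevScapTKO (median 871), and 1 of 12 RevScapTKO libraries was below the lowest RevDKO library. Its log2 difference was -0.15 ± 0.17 (limma adjusted p = 0.526).

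Set against Control instead of RevDKO, RevScapTKO hepatocytes had the same number of members lower, 8 of 9, with 18.7% of all genes called lower and 35.9% in either direction. This comparison shares the RevScapTKO libraries with the one above. The means differed 31.4-fold for Fasn, 15.3-fold for Acacb, 7.44-fold for Thrsp, 5.26-fold for Acss2, 3.75-fold for Acly, 3.12-fold for Me1, 2.95-fold for Slc25a1 and 2.92-fold for Acaca. All 12 RevScapTKO libraries lay below the lowest Control library for Fasn, Acacb, Acss2 and Slc25a1, 11 for Acly, 10 for Acaca, 9 for Thrsp and 2 for Me1. Mlxipl was again not called (-0.21 ± 0.17, limma adjusted p = 0.325).

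Other cells moved with the genotype in these hepatocyte libraries. The summed macrophage markers reached a median of 3167 RPKTM in RevScapTKO (1034 to 6690), compared with 958 in Control (262 to 3445) and 1186 in RevDKO (455 to 2644), and 12 of 12 of them were higher in RevScapTKO than in either other genotype. Summed stellate cell markers had medians of 469, 612 and 1148 RPKTM, and endothelial markers of 1022, 1195 and 1921, in Control, RevDKO and RevScapTKO, and 5 of 6 and 4 of 6 of these genes were called higher in RevScapTKO than in RevDKO. The part of these last lists in the results was not tested. With a macrophage marker score as a covariate, 8 of 9 members were still called lower in RevScapTKO than in RevDKO, with log2 differences of -4.59 for Fasn, -4.62 for Acacb, -3.04 for Thrsp and -0.06 for Mlxipl. In bulk libraries such as these, fewer cells of a type and less RNA per cell cannot be told apart.

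**Figure D1:**
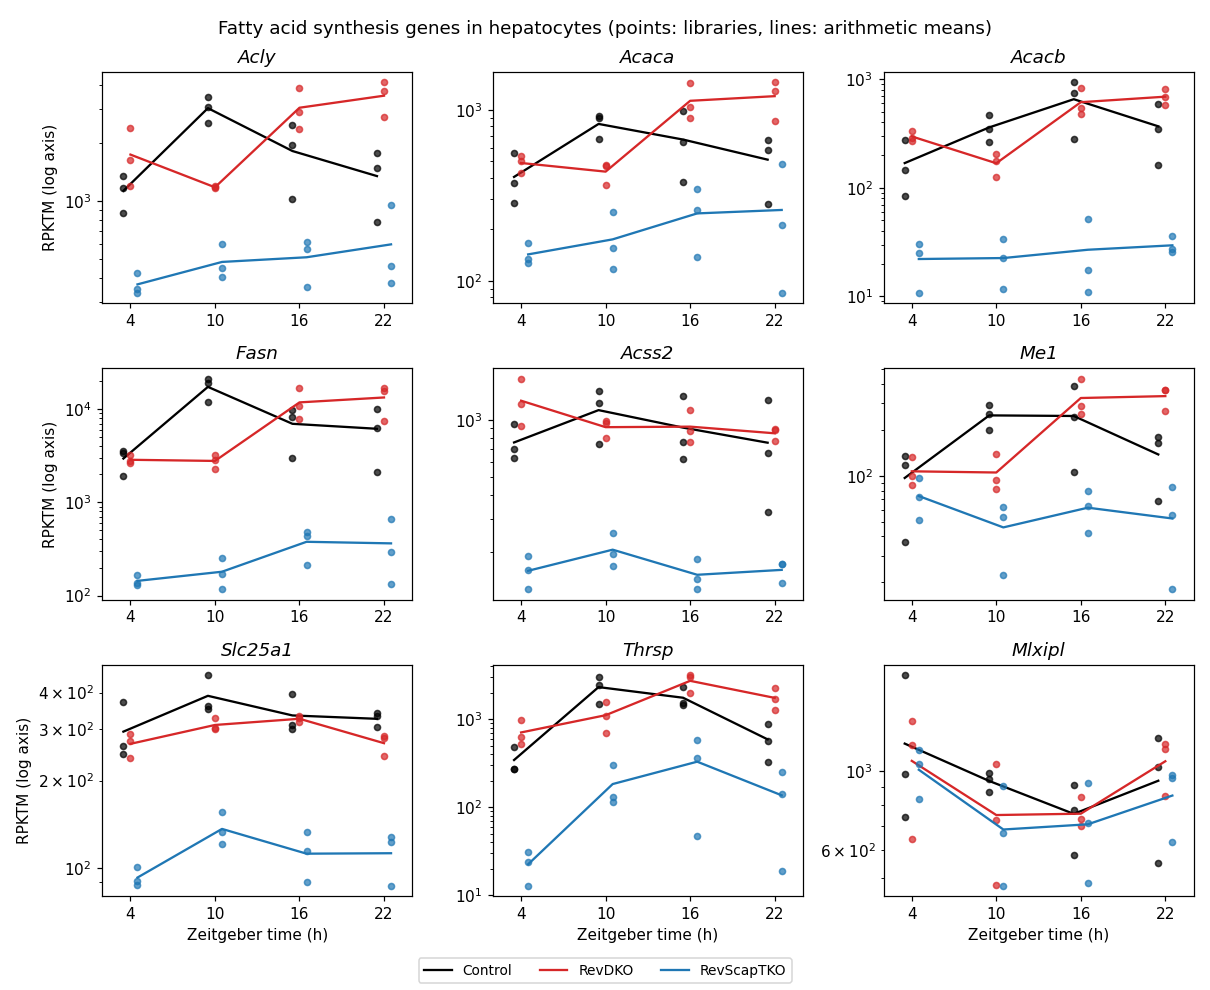
Levels of the 9 genes in hepatocytes, in RPKTM on a log axis, against Zeitgeber time in hours, with 1 point per library (3 per genotype and time) and lines through the arithmetic means. All RevScapTKO libraries lie below all others for Fasn, Acacb, Acss2 and Slc25a1, most do for Acly, Acaca and Thrsp, Me1 and Mlxipl overlap more, and the RevDKO line for Fasn and Acly is lowest at ZT10, where the Control line is highest.

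**Figure D2:**
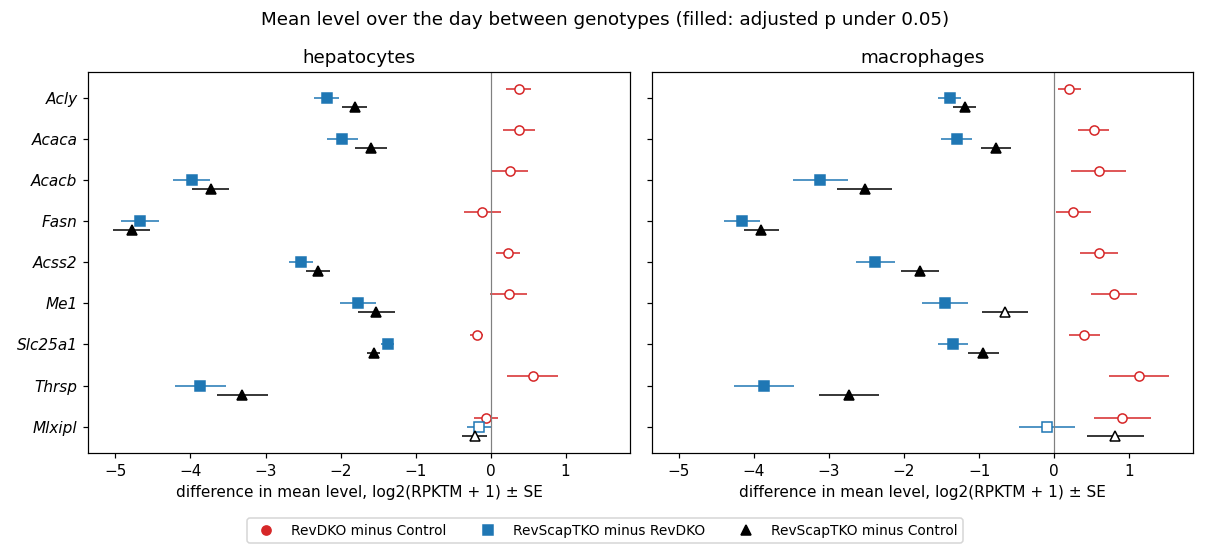
Log2 difference of the mean level over the day for the 9 genes in hepatocytes (left) and LMs (right), with bars for the SE, 12 libraries per genotype, and filled symbols for a limma adjusted p under 0.05. RevDKO minus Control is open throughout, while RevScapTKO minus RevDKO is filled for 8 genes in each cell type.

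The study sampled the day because the REV-ERBs are clock proteins, and at single times RevDKO hepatocytes did differ from Control. Of 36 tests (9 genes at 4 times), 3 were called by limma: Fasn and Acly were lower at ZT10, and Acly was higher at ZT22. Of all genes, 0.495% were called lower at ZT10 and 0.263% higher at ZT22, and 0.585% and 0.300% were called in either direction at ZT4 and ZT16.

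At ZT10, late in the light phase, Fasn measured 11909, 21193 and 19004 RPKTM in the 3 Control libraries and 2838, 2274 and 3247 in the 3 RevDKO libraries. The groups were far apart, with a log2 difference of -2.61 ± 0.50 (limma adjusted p = 0.00255). Acly measured 2557, 3493 and 3076 RPKTM in Control and 1181, 1166 and 1193 in RevDKO at that time, again without overlap (-1.35 ± 0.33, limma adjusted p = 0.0233). Over the 9 members the median difference at ZT10 was -1.07.

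At ZT22, late in the dark phase, the order was turned. Acly measured 780, 1492 and 1775 RPKTM in Control and 4140, 3714 and 2737 in RevDKO (1.45 ± 0.33, limma adjusted p = 0.0322). Fasn measured 2136, 6235 and 10131 RPKTM in Control and 16763, 15851 and 7485 in RevDKO, where the groups overlapped (1.3, limma adjusted p = 0.382). Thrsp, Me1 and Acaca had estimates of 1.64, 1.37 and 1.3 that were not called (limma adjusted p = 0.471, 0.325 and 0.247). The call for Fasn at ZT10 held with any 1 library left out (-2.86 to -2.45). That for Acly at ZT10 was lost without Control ZT10 replicate 2 or 3 or without any RevDKO ZT10 replicate (-1.47 to -1.25 over all libraries left out), and that at ZT22 without Control ZT22 replicate 1 or 2 or RevDKO ZT22 replicate 1 or 2 (1.10 to 1.69).

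The 24 h pattern itself was then compared between genotypes with cosine terms in the limma fit. It differed between RevDKO and Control for Acly (limma adjusted p = 0.00538) and Fasn (0.0123), that is for 2 of 9 members against 0.203% of all genes, or 27 of 13325. The other 7 were not called, at 0.345 for Acaca and Me1, 0.622 for Acacb, 0.897 for Thrsp and 1.0 for Acss2, Slc25a1 and Mlxipl. The adjusted p for Fasn rose to 0.0611 without Control ZT10 replicate 2, 0.0665 without Control ZT22 replicate 1, 0.0516 without RevDKO ZT10 replicate 2, 0.0707 without RevDKO ZT22 replicate 1 and 0.0543 without RevDKO ZT22 replicate 2, while that for Acly stayed between 0.00201 and 0.0369 under every alternative.

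Fitted peak times place the change on the clock. The cosine for Fasn peaked at ZT12.2 in Control and ZT19.2 in RevDKO, with peak-to-trough log2 differences of 2.05 and 2.95. That for Acly peaked at ZT11.8 and ZT20.1 (1.39 and 1.77). For Acaca the fit went from ZT12.7 to ZT19.4 and for Acacb from ZT15.8 to ZT20.2. For Me1 it went from ZT13.7 to ZT19.1 and for Thrsp from ZT13.3 to ZT17.3. The change of rhythm was tested and not called for Acaca, Acacb, Me1 or Thrsp. With Fasn and Acly, the fitted peaks of these 6 genes lay from ZT11.8 to ZT15.8 in Control and from ZT17.3 to ZT20.2 in RevDKO. These include fits without a called rhythm, namely Acaca and Me1 in Control and Thrsp in RevDKO. Slc25a1 swung little in either genotype (0.32 and 0.36), and Acss2 and Mlxipl had fitted peaks at ZT11.0 and ZT4.50 in Control and at ZT4.90 and ZT0.481 in RevDKO, with swings of 0.76 and 0.58 in Control and 0.45 and 0.70 in RevDKO. For Slc25a1, Acss2 and Mlxipl a rhythm was not called in either genotype, nor was a change of rhythm, so their fitted peaks do not show a shift.

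The raw values of Thrsp and Me1, for which no change of rhythm was called, are given here by time. Thrsp in Control measured 485, 274 and 269 RPKTM at ZT4, 1468, 3009 and 2438 at ZT10, 1436, 2294 and 1501 at ZT16, and 322, 570 and 869 at ZT22. In RevDKO it measured 980, 617 and 514 at ZT4, 691, 1078 and 1545 at ZT10, 3141, 3037 and 1964 at ZT16, and 2257, 1704 and 1253 at ZT22. All RevDKO values at ZT22 lay above all Control values at ZT22. Me1 in RevDKO measured 82.4, 139 and 93.4 RPKTM at ZT10 and 365, 367 and 266 at ZT22, and in Control 254, 293 and 200 at ZT10 and 68.5, 180 and 165 at ZT22. The Me1 groups did not overlap at either time, a separation not counted over all genes, and neither difference passed the test over all genes.

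Taken 1 genotype at a time, a 24 h rhythm was called by limma for 4 of 9 members in Control hepatocytes (adjusted p = 0.0184 for Acly, 0.0288 for Acacb, 0.0230 for Fasn and 0.00929 for Thrsp) against 8.29% of all genes. It was called for 5 of 9 in RevDKO (Acly, Acaca, Acacb, Fasn and Me1, limma adjusted p of 0.00394 to 0.0272) against 4.08%. In RevScapTKO hepatocytes it was called for Thrsp alone (limma adjusted p = 0.0343) against 0.683%. Calls in 1 genotype and not in another do not show a difference, and the change of rhythm between RevScapTKO and RevDKO was called for 0 of 9 members and for 0 of all genes by limma, with 674 genes at an unadjusted p under 0.05. The count for Control fell to 2 without ZT4 replicate 2, ZT10 replicate 2, ZT16 replicate 2 or 3 or ZT22 replicate 1, and the count for RevDKO fell to 3 without ZT10 replicate 2, ZT16 replicate 1 or ZT22 replicate 2. The call for Thrsp in RevScapTKO was lost, leaving 0, without ZT4 replicate 2 or 3, ZT10 replicate 1 or ZT16 replicate 1 or 2.

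In RevScapTKO hepatocytes Thrsp measured 30.9, 23.5 and 12.8 RPKTM at ZT4, 130, 116 and 302 at ZT10, 575, 362 and 46.6 at ZT16, and 250, 18.9 and 139 at ZT22. All ZT10 libraries were above all ZT4 libraries. Its fitted peak-to-trough log2 difference was 3.41, compared with 3.12 in Control and 2.09 in RevDKO, with a peak at ZT15.0. Fasn in RevScapTKO had 1.53 and Acly 0.48 on the same scale.

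Macrophage markers also moved over the day in hepatocyte libraries. Their summed medians at ZT4, ZT10, ZT16 and ZT22 were 500, 712, 1673 and 2770 RPKTM in Control and 636, 1107, 1324 and 1878 in RevDKO. With the marker score as a covariate the change of rhythm was still called by limma for Acly (adjusted p = 0.0109) and Fasn (0.0247), while the rhythm within Control was called for Thrsp alone and within RevDKO for Acly, Fasn and Thrsp.

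**Figure D3:**
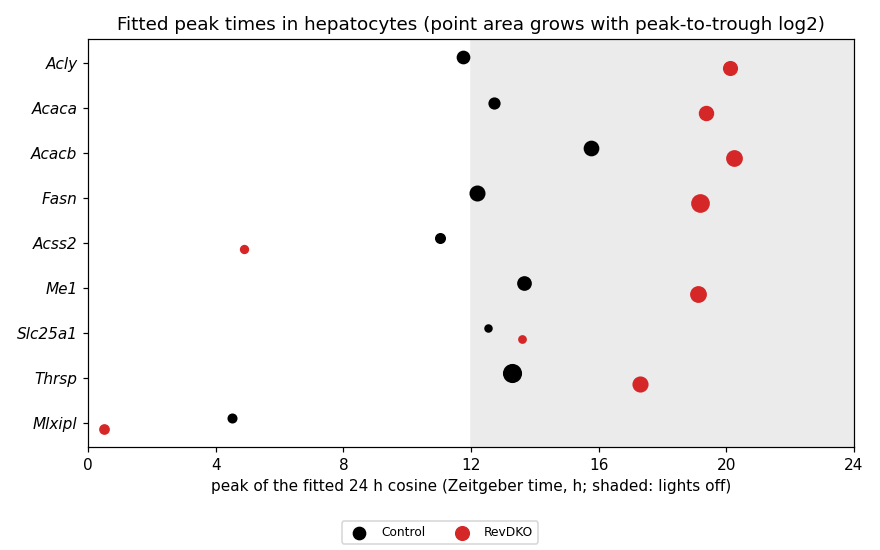
Time of the peak of the fitted 24 h cosine for the 9 genes in hepatocytes, on a Zeitgeber axis in hours with the dark phase shaded, with point area growing with the peak-to-trough log2 difference. Fasn goes from 12.2 h in Control to 19.2 h in RevDKO and Acly from 11.8 h to 20.1 h, and Slc25a1 hardly moves.

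Scap loss was seen at every time of day. Of 36 single-time tests of RevScapTKO against RevDKO, 29 were called lower by limma and 0 higher: 7 at ZT4, 6 at ZT10, 8 at ZT16 and 8 at ZT22, where 4.86%, 0.735%, 1.14% and 1.78% of all genes were called lower. Fasn was lower at each, by log2 differences of -4.31, -4.00, -4.98 and -5.40. The 7 tests not called were the 4 of Mlxipl, Me1 at ZT4 and ZT10 and Acaca at ZT10 (limma adjusted p = 0.130). The call for Thrsp at ZT10 was lost on leaving out any 1 of 27 of the 36 libraries (-3.09 to -2.37), the least secure of the 29. Against Control, 28 of 36 were called lower (7, 8, 7 and 6, with 9.61%, 2.33%, 2.27% and 2.49% of all genes), and the deepest was Fasn at ZT10 (-6.61, limma adjusted p = 3.1e-11).

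Because the 2 carboxylases feed different pools of malonyl-CoA, the level of Acacb was expressed relative to that of Acaca in each library. The log2 ratio was -0.82 ± 0.72 (SD, n = 12) in Control, -0.94 ± 0.31 in RevDKO and -2.95 ± 0.93 in RevScapTKO. Its lowest, median and highest values were -2.15, -0.93 and 0.53 in Control, -1.53, -0.86 and -0.58 in RevDKO, and -4.44, -2.91 and -1.23 in RevScapTKO. The ratio was lower in RevScapTKO than in RevDKO by a mean of -2.01, with a two-sided exact permutation p of 1.25e-05 over 160000 relabellings within time points, the smallest they can give, and an adjusted p of 3.75e-05 over the 3 pairs. Against Control the mean difference was -2.13 (exact permutation p = 2.5e-05, adjusted 3.75e-05). RevDKO and Control differed by -0.13 (exact permutation p = 0.533), less than the spread within either. Acacb and Acaca thus fell by unequal factors when Scap was removed.

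**Figure D4:**
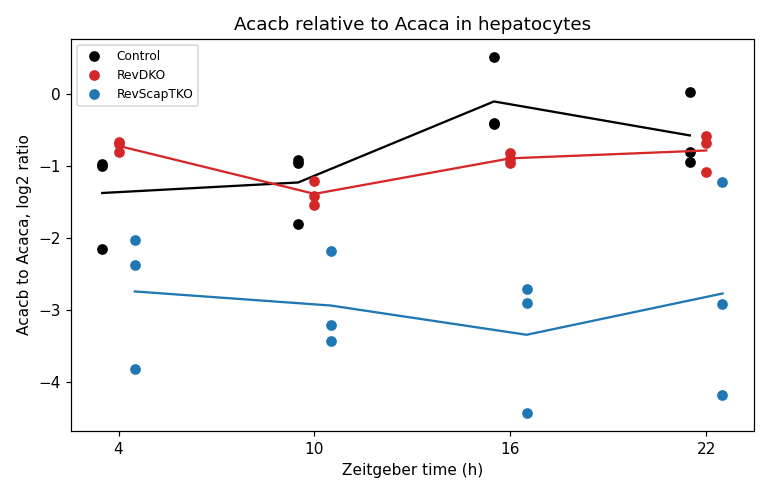
Log2 ratio of Acacb to Acaca in hepatocytes against Zeitgeber time in hours, with 1 point per library and lines through the means of 3 libraries. Control and RevDKO points lie between -2.15 and 0.53, and the RevScapTKO points between -4.44 and -1.23.

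The genes around the pathway were described by lists. In RevScapTKO against RevDKO hepatocytes, 12.7% of all genes were called lower and 13.5% higher. Enzymes that elongate and desaturate the product followed the members in RevScapTKO against RevDKO, with 7 of 8 lower, 1 higher and a median log2 difference of -2.80. Scd1, the main liver stearoyl-CoA desaturase, differed by -8.91 ± 0.26 (limma adjusted p = 1.63e-22), Fads1, a desaturase of polyunsaturated fatty acids, by -4.74, and Elovl5, an elongase, by -3.20. Scd2, another stearoyl-CoA desaturase, was the one higher (0.99, limma adjusted p = 0.00164). Among 12 regulators, 4 were lower and 1 higher. Insig1, which retains SCAP in the endoplasmic reticulum, differed by -4.18, Srebf1, which encodes SREBP-1, by -4.07 and Srebf2, which encodes SREBP-2, by -1.43. Scap itself is among the 4.

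Some genes on the routes into the pathway were lower as well, beside the same 12.7% of all genes. Of 7 tested NADPH-producing genes beside Me1, 3 were lower: Idh1, cytosolic isocitrate dehydrogenase, by -1.10, and Tkt and Taldo1 of the pentose phosphate pathway by -1.05 and -0.44. Of 9 genes that bring in carbohydrate, 5 were lower, among them Pklr, liver pyruvate kinase (-1.37), and Khk, ketohexokinase (-0.79). Of 7 tested partners of the enzymes, 4 were lower, led by Mid1ip1, a relative of Thrsp that acts on acetyl-CoA carboxylase (-2.96), and Acat2 (-1.78) and Mlycd, malonyl-CoA decarboxylase (-0.43). Between RevDKO and Control, limma called 1 of the 12 regulators, 1 of the 7 partners, 1 of the 9 carbohydrate genes and 0 of the others, beside 4.43% of all genes. They were Insig2 higher (0.71, limma adjusted p = 0.000521), Pcx, pyruvate carboxylase, higher (0.33, 0.0405), and Txnip, a ChREBP target, lower (-1.01, 0.00745).

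As a description over the 36 hepatocyte libraries, non-member genes whose log2 levels ran among the closest to the mean of the members were Scd1 (Pearson r = 0.949), Srebf1 (0.943) and Aacs (0.927). These libraries share 3 genotypes and 4 times, which both enter r. Each member was also set against the mean of the other 8: r was 0.98 for Fasn, 0.954 for Acly, 0.935 for Acaca, 0.925 for Acacb, 0.890 for Acss2, 0.871 for Thrsp, 0.846 for Slc25a1, 0.808 for Me1 and 0.177 for Mlxipl. With the mean of each genotype and time removed, library-to-library deviations of Fasn still ran with those of Acaca (r = 0.94), Acly (0.87) and Thrsp (0.73), less with Acacb (0.39) and not with Slc25a1 (0.03).

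In LMs, all 9 genes were detected. Fasn had a lowest, median and highest level of 386, 1656 and 4707 RPKTM in Control LMs, Acly 293, 488 and 785, and Mlxipl 21.6, 336 and 1422. Me1 was the lowest in Control at 6.27, 22.2 and 67.7 RPKTM. Hepatocyte and LM tables were normalized apart, so their levels are set side by side and not tested. Hepatocyte RNA was present in every LM library: the summed hepatocyte markers had medians of 104704, 96660 and 112516 RPKTM in the Control, RevDKO and RevScapTKO groups.

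Between RevDKO and Control LMs, 0 of 9 members were called by limma, against 0.574% of 13946 genes, with 1934 genes at an unadjusted p under 0.05. All 9 estimates were positive, with a median log2 difference of 0.595, the largest being Thrsp (1.13 ± 0.40, limma adjusted p = 0.212) and Mlxipl (0.91 ± 0.38, 0.282). The macrophage markers of these libraries moved too, with a median sum of 19791 RPKTM in Control (3593 to 42103), 9968 in RevDKO (4284 to 35012) and 10702 in RevScapTKO (5369 to 34221), and their part in the estimates was not tested. This count rests on Control ZT22 replicate 3: without it, limma called 3 members higher, Slc25a1 (0.58, adjusted p = 0.0472), Thrsp (1.4, 0.0236) and Mlxipl (1.22, 0.0280). That library had the lowest macrophage marker sum of these LM libraries, 3593 RPKTM. The share of all genes called was not counted without it, nor in any other fit with libraries left out, so these 3 calls have no background beside them.

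In LM libraries of RevScapTKO the same 8 members were lower than in RevDKO as in hepatocytes. The deletion was directed at hepatocytes, whose RNA was present in every LM library, and in which cells the levels fell was not tested. Of all genes, 1.78% were called lower, and the median log2 difference was -1.45 over the members and 0.0369 over all genes. Fasn went from 1113, 1762 and 4707 RPKTM (lowest, median, highest) in RevDKO to 63.5, 99.5 and 233 in RevScapTKO, with no overlap and an 18-fold difference of means (-4.16 ± 0.23, limma adjusted p = 2.72e-14). Thrsp went from 118, 237 and 697 RPKTM to 1.86, 20.3 and 111, also with no overlap (9.90-fold, -3.86 ± 0.40, limma adjusted p = 4.67e-08). Acss2 went from 63.9, 152 and 362 RPKTM to 19.9, 30.1 and 35.3 (5.79-fold, limma adjusted p = 8.54e-08).

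The other enzymes fell with more overlap or by less. Acacb had 21.7, 110 and 354 RPKTM in RevDKO LMs and 2.58, 10.8 and 27.8 in RevScapTKO LMs, with 10 of 12 libraries below all RevDKO libraries (9.99-fold, limma adjusted p = 5.7e-07). Acly, without overlap, and Acaca differed 2.7-fold and 2.62-fold, and Slc25a1 differed 2.64-fold (limma adjusted p = 1.24e-07, 7.59e-05 and 5.26e-05). Me1 differed 4.04-fold by means, but only 2 of 12 RevScapTKO libraries were below all RevDKO libraries (-1.45 ± 0.30, limma adjusted p = 0.00344). Mlxipl was again not called, at -0.09 ± 0.38 (limma adjusted p = 0.932), with a median of 486 RPKTM in RevDKO and 526 in RevScapTKO.

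The 8 calls stood with a hepatocyte marker score as a covariate (Fasn, -4.02) and without the 3 libraries with the highest hepatocyte marker sums (Fasn, -4.18). The hepatocyte markers had mean log2 levels of 11.4, 11.4 and 11.3 in Control, RevDKO and RevScapTKO LM libraries. A score so alike between genotypes cannot tell a fall in hepatocyte RNA from one in LM RNA. Leaving out 3 libraries cannot either, since the others hold hepatocyte RNA too. The targeted gene Scap differed by -0.54 between RevScapTKO and RevDKO LM libraries (limma adjusted p = 0.127). Against Control, 7 members were lower in RevScapTKO LMs, where 1.38% of all genes were called lower and 3.76% in either direction. Fasn differed by -3.90, Thrsp by -2.73, Acss2 by -1.79, Acly by -1.19, Slc25a1 by -0.95 and Acaca by -0.77, Acacb was the remaining one called, and Me1 (-0.66, limma adjusted p = 0.253) and Mlxipl (0.82, 0.248) were not called. Without Control ZT22 replicate 3, Mlxipl was called higher (1.13, limma adjusted p = 0.0274). The call for Acaca was lost without Control ZT16 replicate 2 or 3, or RevScapTKO ZT4 replicate 2, ZT10 replicate 2, ZT16 replicate 3 or ZT22 replicate 3 (-0.89 to -0.70 over all libraries left out).

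**Figure D5:**
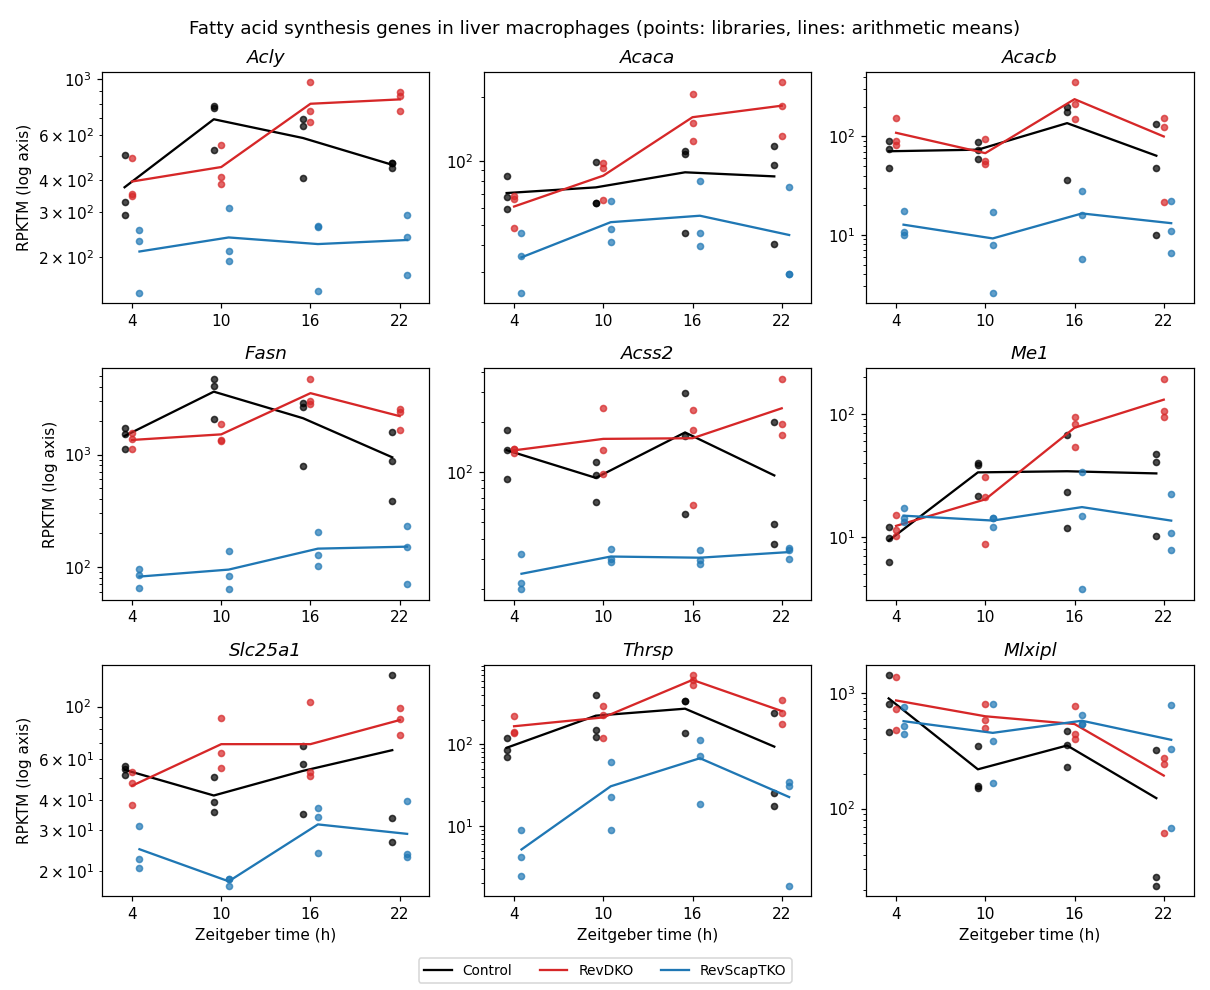
Levels of the 9 genes in LMs, in RPKTM on a log axis, against Zeitgeber time in hours, with 1 point per library (3 per genotype and time) and lines through the arithmetic means. RevScapTKO points lie below all RevDKO points for Fasn, Thrsp, Acss2 and Acly, and Mlxipl points of the genotypes are mixed.

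Single times in LMs gave fewer calls than in hepatocytes. RevDKO differed from Control in 0 of 36 tests by limma (0.00717%, 0.0789%, 0.0430% and 0% of all genes at the 4 times). Without Control ZT22 replicate 3 it differed in 6, all at ZT22, and the share of all genes was not counted for that fit. RevScapTKO was lower than RevDKO in 14 of 36 (3, 2, 3 and 6 at ZT4, ZT10, ZT16 and ZT22, with 0.172%, 0.151%, 0.215% and 0.301% of all genes called in either direction), Fasn at each time. Against Control it was lower in 8 of 36 (3, 2, 2 and 1, with 0.330%, 0.201%, 0.186% and 0.136%).

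In LMs, rhythms of members were called in RevDKO. Me1 measured 10.2, 11.4 and 15.2 RPKTM at ZT4, 30.5, 8.80 and 21.2 at ZT10, 83.5, 53.4 and 94.4 at ZT16, and 105, 193 and 93.7 at ZT22, so that all dark-phase libraries lay above all light-phase libraries. Its rhythm was called (limma adjusted p = 0.00490), as were those of Acly (0.0342) and Acaca (0.0409), 3 of 9 members against 2.53% of all genes. The hepatocyte marker score of the same 12 libraries ran with these genes (r = 0.97 for Me1, 0.78 for Acaca and 0.72 for Acly). With that score as a covariate 0 of the 9 were called. Without RevDKO ZT4 replicate 1 or 3, ZT16 replicate 1 or ZT22 replicate 1 or 2, Me1 alone was called. In Control and RevScapTKO LMs 0 members were called by limma (0.0502% and 0.0789% of all genes, 1113 and 520 genes at an unadjusted p under 0.05), although without Control ZT22 replicate 3, Fasn and Mlxipl were called in Control, and without Control ZT16 replicate 1, Fasn. The change of rhythm was called for 0 of 9 and for 0 of all genes between RevDKO and Control and between RevScapTKO and RevDKO (767 and 498 genes at an unadjusted p under 0.05).

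ScapKO libraries were described within their own tables. In hepatocytes ZT22 replicate 2 stood apart: Fasn measured 7006 RPKTM there and 194 to 1424 (median 766) in the other 11 libraries, and Acacb 1112 against a highest of 111. Scap, the targeted gene, measured 1006 RPKTM in that library and 205 to 380 in the others, and Mlxipl 2459 against 798 to 1289. Its summed macrophage markers were the highest of the table, 3713 RPKTM against 541 to 1594, and their part in these levels was not tested. With all libraries a 24 h rhythm was called by limma for Thrsp alone (adjusted p = 0.0267), against 1.85% of 12723 genes. Without ZT22 replicate 2 it was called for 7 of 9 members (Acly, Acaca, Acacb, Fasn, Acss2, Me1 and Thrsp). The share of all genes was not counted for that fit, so the 1.85% is not its background. Without ZT4 replicate 1 or 3, ZT10 replicate 1 or 2 or any ZT16 replicate, the count of members was 0. Thrsp measured 106, 231 and 60.7 RPKTM at ZT4, 547, 888 and 294 at ZT10, 863, 886 and 941 at ZT16, and 113, 683 and 269 at ZT22. Its values at ZT16 were high in all 3 libraries and at ZT4 low in all 3, and its fitted peak was at ZT14.8.

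In ScapKO LMs, ZT4 replicate 2 and ZT22 replicate 2 stood apart. Fasn measured 5958 and 6028 RPKTM in them and 484 to 2081 in the other 10 libraries, Acacb 451 and 566 against 4.29 to 56.2, and Mlxipl 1886 and 6595 against 96.7 to 1184. Both were the richest of the 12 in hepatocyte markers, with summed levels of 150839 and 157010 RPKTM against 26167 to 90607 in the others, and their macrophage markers were the lowest, at 89689 and 24574 RPKTM against 107958 to 150099. The part of these markers in the levels was not tested. Acly did not stand apart there (1420 to 2132 RPKTM in the others). A rhythm was called by limma for 0 of 9 members and for 0 of 13929 genes, with 1412 genes at an unadjusted p under 0.05, and for 0 members without these libraries.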

How the data were processed

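Total RNA depleted of ribosomal RNA was sequenced from 96 libraries. The authors aligned reads to mm9 with STAR and counted RefSeq transcripts with HOMER; versions are not given in the sources used here. The deposited values are scores in RPKTM (RPKM times 10), quantile normalized by the authors within each of 4 tables, so the libraries of a table share 1 set of sorted values. Library depth is unknown, and precision rests on the spread between libraries, which may be technical. Of 42322 transcripts, 91 without a gene symbol were left out. Acss2 overlaps the antisense gene Acss2os, and strand use in counting is not given.

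Genes over 5 RPKTM in at least 3 libraries were tested on log2(RPKTM + 1), a scale that understates changes of low genes, with limma 3.58.1 (R 4.3.3): 1 mean per genotype and time, trended prior variance, 24 h cosine terms from the time means, and Benjamini-Hochberg adjustment over all genes at 0.05. Groups followed the labels. The Acacb to Acaca ratio was tested by exact permutation. The code was tested on simulated data. The members, lists and tests were chosen with earlier results of these data known. All members were named, with up to 3 called genes of each list with the largest hepatocyte difference and the 5 genes most like the members, some of which are not reported here; Scd2 and Mlxip were named after their values were seen. Alternatives changed the pseudocount, filter, transcript choice, prior, replicate block, covariate, genotypes fitted, rhythm test and libraries. Motifs were sought in 250 bases upstream of annotated starts on mm9.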

Additional observations from a re-analysis of the deposited data

Results flagged for a closer look

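The 24 h pattern of Acly differed between RevDKO and Control hepatocytes in a test of the difference itself (limma, cosine by genotype terms, adjusted p = 0.00538), as did that of Fasn (adjusted p = 0.0123). In Control the means over 3 libraries were highest at ZT10 for both genes, and in RevDKO they were lowest at ZT10 for both.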

How the results depend on the processing

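The calls on the mean level over the day kept their number in hepatocytes under every alternative run (0 members for RevDKO against Control, 8 for RevScapTKO against RevDKO and 8 against Control), and in LMs the 8 of RevScapTKO minus RevDKO did too. Leaving out 1 library each gave 0 to 3 members for RevDKO minus Control and 6 to 8 for RevScapTKO minus Control in LMs. The change of rhythm in hepatocytes, 2 members, became 1 with no filter, 4 with only the 2 genotypes fitted and 1 to 2 with 1 library left out. Single-time calls in hepatocytes, RevDKO minus Control, were 3, or 1 with no filter, and 2 to 3, 27 to 29 and 26 to 31 with 1 library left out in the 3 comparisons. In LMs they were 0 to 6, 10 to 20 and 6 to 12. There RevScapTKO minus RevDKO, 14, became 22 without the 3 libraries with the highest hepatocyte marker sums. RevScapTKO minus Control, 8, became 4 with 2 genotypes fitted.

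Rhythms within a genotype depended most on the setting. Members called in hepatocytes were, for Control, 4, or 2 with no filter, 1 with the marker covariate and 2 to 5 with 1 library left out. For RevDKO they were 5, or 3, 3 and 3 to 5. For RevScapTKO they were 1, or 0 with no filter, 0 with no trend in the prior, 2 with JTK_CYCLE and 0 to 1 with 1 library left out. For ScapKO they were 1, or 0 with no filter, no trend or an F test of any time difference, 4 with the covariate, 5 with JTK_CYCLE and 0 to 7 with 1 library left out. In LMs they were, for Control, 0, or 1 with the covariate, 1 without the 3 libraries, 3 with JTK_CYCLE and 0 to 2 with 1 left out; for RevDKO 3, or 1 with no trend, 0 with the covariate, 6 with JTK_CYCLE and 1 to 3; for RevScapTKO 0, or 2 with JTK_CYCLE; and for ScapKO 0, or 1 with JTK_CYCLE. JTK_CYCLE was a separate implementation whose p-values are not exactly those of the software used in the study. In Control hepatocytes it called Acly, Acaca, Acacb, Fasn, Me1 and Thrsp, and in RevDKO hepatocytes the same genes, with each series entered 2 times. With each series entered 2 times it called 13.5% to 27.9% of all genes, and with each entered once 2.7% to 10.6%. The causes were not tested.

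Values that changed sign were not called in either setting. Fasn, RevDKO minus Control, was -0.11 in hepatocytes and lay between -0.27 and 0.01 with 1 library left out (0.0103 without Control ZT22 replicate 3), and 0.26 in LMs and -0.0271 without the 3 libraries. Mlxipl in hepatocytes, -0.06, lay between -0.15 and 0.033 with 1 library left out. Mlxipl in LMs, RevScapTKO minus RevDKO, -0.09, was 0.20 with the covariate and lay between -0.29 and 0.15 with 1 library left out. With 1 library left out, the difference in carboxylase ratio lay between -0.22 and -0.05 for RevDKO against Control. It lay between -2.20 and -1.83 for RevScapTKO against RevDKO and between -2.33 and -1.96 against Control. With a pseudocount of 10 these differences were -0.13, -1.61 and -1.74. The exact permutation adjusted p for RevScapTKO was then 7.5e-05 against RevDKO and 9.375e-05 against Control.

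A replicate block, using the replicate number shared by groups, moved none of the counts of calls by over 1.5 times (8 of 9 for RevScapTKO minus RevDKO in both cell types). Samples of the same number correlated over 0.1 in 45 of 198 pairs in hepatocytes and in 85 of 198 in LMs, while 24 of 36 and 27 of 36 libraries correlated best, on average, with their own number, a hint from the data and not from the design. The labels give no shared animal or day for a number. The omission of the libraries with the highest hepatocyte marker sums and of the 2 ScapKO LM libraries was chosen after seeing the data. Depth is unknown, which limits statements on low levels.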
